A study of Mus musculus with 54 samples.

Results

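The transcripts of 10 genes that myoblasts use to adhere to each other and to fuse were followed in H2K mouse myogenic progenitors: Mymk, Mymx, Cdh15, Cdh2, Ncam1, Vcam1, Jam2, Jam3, Myof, and Dysf. The genes were chosen by name and matched by NCBI gene number (Mymx was formerly called Gm7325). All 10 were listed in each of the 27 tables of group comparisons, which together list 19653 genes. No filter on low values was applied to them.

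H2K progenitors carry a conditional immortalizing transgene, so they divide in interferon-γ and differentiate once it is withdrawn. The 6 lines were wildtype progenitors, progenitors of emerin-null mice (EMD-/y), and EMD-/y progenitors transduced with lentivirus for wildtype emerin (+EMD) or for an emerin mutant. The mutants were S54F, Δ95–99 (residues 95 to 99 deleted), and Q133H, each of which causes Emery–Dreifuss muscular dystrophy. The +EMD, S54F, Δ95–99, and Q133H lines thus lack the mouse gene as EMD-/y does, and were selected with puromycin at doses that differed between lines. Wildtype and EMD-/y progenitors were not selected, and fewer of their cells were seeded per well than of the mutant lines. RNA was taken at day 0 (after a night in proliferation medium at high density), day 1 (24 h in differentiation medium), and day 2 (48 h). Each of the 18 groups of line and day has 3 labelled replicates, 54 samples in all. The methods give 3 technical replicates for each of 2 biological replicates, and the labels do not say which a sample is, so p-values may measure technical spread. Each allele was studied in 1 line, so a line and its emerin allele cannot be told apart.

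Myoblasts that leave the cell cycle recognize each other, adhere, and merge into multinucleated myotubes. Mymk encodes myomaker, a multipass membrane protein that both partner cells need, and Mymx encodes myomixer (also called myomerger or minion), a small protein that completes membrane merger. Contact before merger rests on M-cadherin (Cdh15), N-cadherin (Cdh2), and the immunoglobulin-family proteins NCAM (Ncam1), VCAM-1 (Vcam1), JAM-B (Jam2), and JAM-C (Jam3). The ferlins myoferlin (Myof) and dysferlin (Dysf) are calcium-binding membrane proteins with roles in fusion and membrane repair.

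The deposited values are 1 value of normalized counts per group and table, with no values per sample, so the spread between replicates enters only through the DESeq2 p-value. Group values summed to between 16.7 and 21.1 M normalized counts per group. They are not plain means of a group. The value of the same group for a weakly expressed gene moved toward its partner group in the table (r from 0.545 to 0.854 over 76 pairs of tables), and log2 ratios spread less among genes under 1 normalized count (SD 0.269 to 0.871) than among genes of 10 to 100 (0.881 to 2.44). Folds of variable genes may therefore be understated. Mouse Emd was at 1159 to 1887 normalized counts in wildtype groups and at or under 2.76 in every other group, +EMD included, so the mouse gene follows the labels but gives no measure of the transduced emerin. Of the 6 myogenic markers, Myod1 (5975 to 25091), Des (9186 to 67687), and Myog (3033 to 54157) were high in every group. The other markers were low in some groups, with Myf5 at 145 to 1438, Pax7 at 3.09 to 2122, and Ckm at 16.1 to 9511. Summed levels of marker lists of other cell types were low in every group, with 3 of 4 fibroblast markers listed (24.2 to 143), 4 of 4 endothelial (16.5 to 49.7), 4 of 4 leukocyte (18.1 to 111), 2 of 2 adipocyte (at most 0.715), and 2 of 3 Schwann cell markers (at most 24.8). The highest fibroblast and leukocyte sums were those of Q133H at day 2. The defining markers Tcf21 and Sox10 were listed in no table.

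Levels below are the median over the tables that hold a group, after each table was brought to 1 scale by a factor between 0.853 and 1.11. Tables were normalized separately by the authors, so each ratio and each call stayed within a table. The z tests given below set log2 changes from separate tables against each other. A call needed a DESeq2 p-value under 0.05 after Benjamini-Hochberg adjustment over all genes of the table, and group values at least 2-fold apart. In a bulk sample, fewer cells that express a gene and less RNA per cell cannot be told apart.

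**Figure D1:**
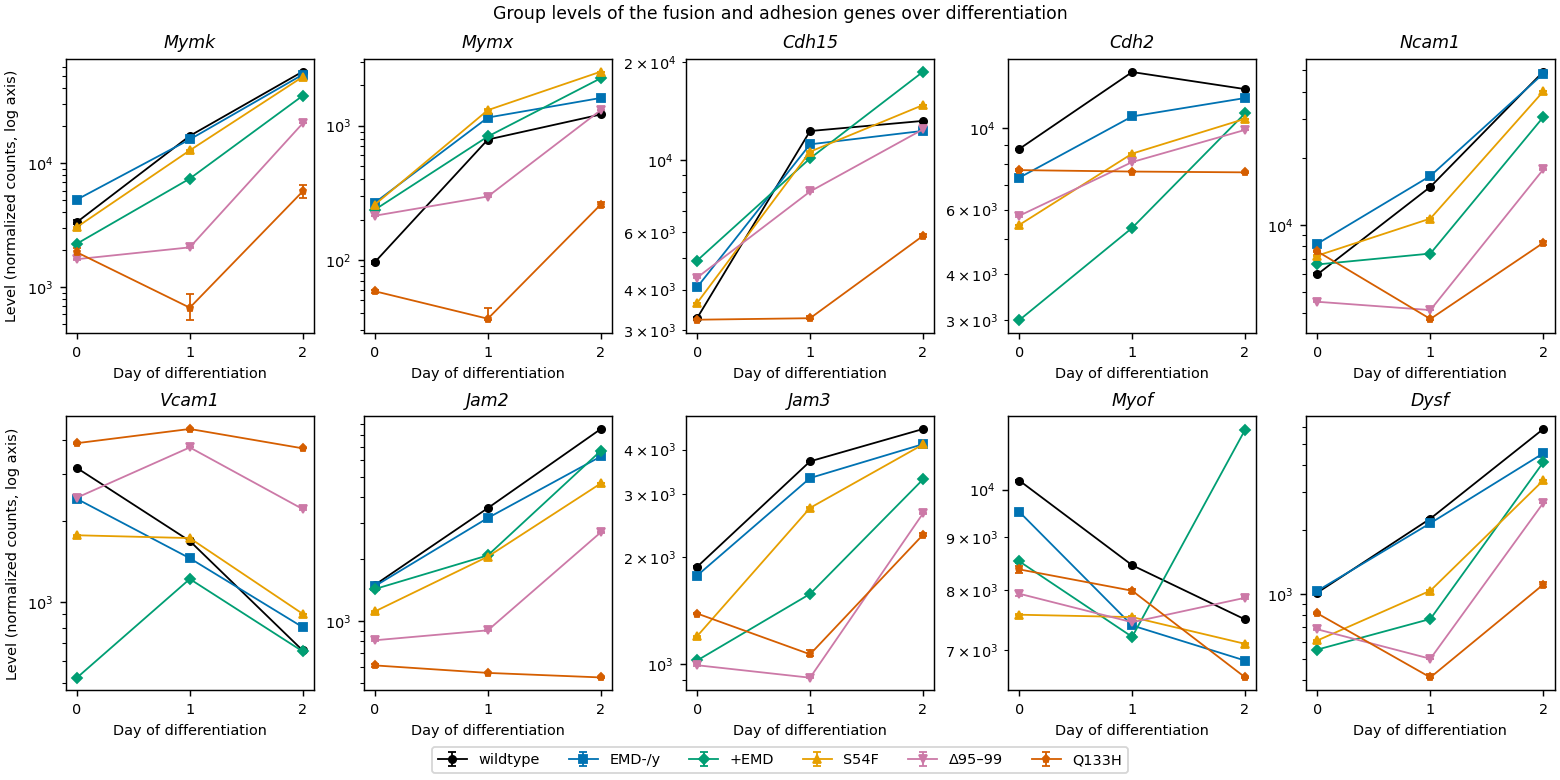
Level of each of the 10 genes (normalized counts, log axis) against day of differentiation, with 1 line of points per cell line. Points are medians over tables and bars reach from the lowest to the highest table, not over replicates. In wildtype, Mymk climbs from 3334 to 54677 and Vcam1 falls from 3149 to 658, while Q133H stays low for Mymk and Jam2 and high for Vcam1.

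Wildtype progenitors raised most of these genes as they differentiated. From day 0 to day 1, 6 of 10 genes were called, all higher (Mymk, Mymx, Cdh15, Ncam1, Jam2, and Dysf), against 17.4% of all genes called in either direction. From day 1 to day 2, 5 were called, with Mymk, Ncam1, Jam2, and Dysf higher and Vcam1 lower, against 15.1% of all genes. In EMD-/y progenitors, 5 genes were called from day 0 to day 1 (15.5% of all genes) and 3 from day 1 to day 2 (13.6%), all of them higher. The +EMD line had 4 called over the earlier interval (12.6% of all genes) and 7 over the later one (15.4%), and the S54F line 4 (12.6%) and 4 (15.8%), again all higher. Δ95–99 and Q133H differed in timing. In Δ95–99, 0 genes were called from day 0 to day 1, where 10.6% of all genes were called. Of the 10 genes, 4 had a DESeq2 adjusted p under 0.05 with changes smaller than 2-fold (5 at an unadjusted p under 0.05). Cdh15, Cdh2, and Vcam1 rose (log2 0.89, 0.50, and 0.63) and Dysf fell (-0.44). From day 1 to day 2, 6 were called in Δ95–99, all higher (10.9%). In Q133H, only Ncam1 was called from day 0 to day 1, and it fell (8.14% of all genes called), and 5 genes were called from day 1 to day 2, all higher (7.29%). With no fold threshold, all 10 genes had a DESeq2 adjusted p under 0.05 from day 0 to day 1 in wildtype, EMD-/y, and +EMD. That count was 8 in S54F, 4 in Δ95–99, and 3 in Q133H. The share of all genes past the p threshold alone was not computed for these changes.

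**Figure D2:**
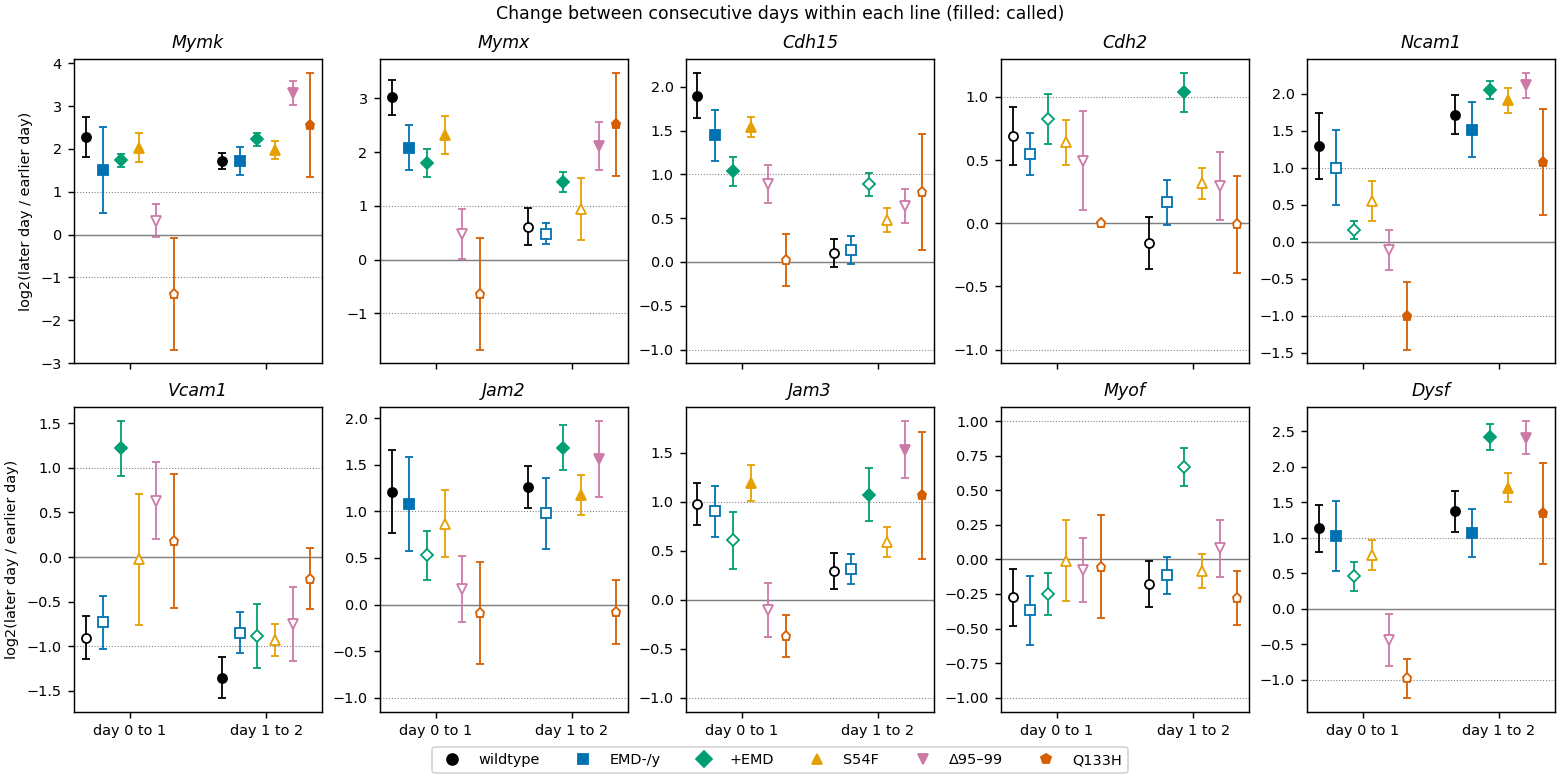
Log2 ratio of the later to the earlier day within each line, for day 0 to 1 and day 1 to 2. Points are ratios of group values, bars are 95% intervals derived from the p-value, filled points were called, and dotted lines mark a 2-fold change. Over the earlier interval the Q133H points lie near or below 0 for most genes, and the Cdh2 point of Q133H there has no error bar.

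Against wildtype of the same day, all 5 lines shared the same wildtype samples, so their differences are not independent of each other. At day 0, 1 gene was called in EMD-/y (5.51% of all genes called), 3 in +EMD (12.6%), and 1 each for S54F (8.38%), Δ95–99 (8.78%), and Q133H (10.7%). At day 1, 0 were called in EMD-/y (4.93% of all genes), 4 in +EMD (15.2%), 1 with S54F (8.95%), 7 for Δ95–99 (16.3%), and 8 for Q133H (18.8%). In EMD-/y at day 1, 2 genes had a DESeq2 adjusted p under 0.05 (4 at an unadjusted p under 0.05). They were Mymx (1.46-fold higher) and Cdh2 (1.32-fold lower), both under the fold threshold. At day 2, 0 were called in EMD-/y (5.27% of all genes) and 0 in +EMD (9 at an unadjusted p under 0.05, with 14.1% of all genes called). The count was 1 with S54F (8.02%), 5 for Δ95–99 (17.3%), and 7 for Q133H (26.9%). In EMD-/y at day 2, 2 genes had a DESeq2 adjusted p under 0.05 (5 at an unadjusted p under 0.05). They were Jam2 (1.35-fold lower, DESeq2 adjusted p = 8.98e-07) and Dysf (1.29-fold lower, DESeq2 adjusted p = 8.46e-06), both under the fold threshold. The +EMD count at day 2 rests on the fold threshold, since 9 of its 10 genes had an adjusted p under 0.05 with differences smaller than 2-fold. In +EMD at day 2, 42.5% of all genes had an adjusted p under 0.05, a share that includes genes at least 2-fold apart. Other counts were also held down by the fold threshold. At an adjusted p under 0.05 alone, S54F had 5, 8, and 6 genes at days 0, 1, and 2, and Δ95–99 had 8, 9, and 7. The counts were 8, 9, and 9 in +EMD, 3, 9, and 9 in Q133H, and 2, 2, and 2 in EMD-/y. The share of all genes at that threshold was computed for +EMD at day 2 only. The median log2 ratio over the 10 genes at day 1 was -1.63 in Δ95–99 and -1.97 in Q133H, where the median of all genes was -0.02 and -0.03. In EMD-/y at day 1 it was -0.15, with all genes at 0.01.

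The myogenic markers also differed between lines, most widely at days 1 and 2. The summed level of Myod1, Myf5, Pax7, Des, Myog, and Ckm was 36827, 83812, and 152163 in wildtype at days 0, 1, and 2, and 28569, 18988, and 59011 in Q133H. In Δ95–99 it was 30188, 34476, and 109556. At day 0 it was 44615 in EMD-/y, 47114 in +EMD, and 34701 in S54F. In these 3 lines it was between 70865 and 78416 at day 1 and between 132087 and 145609 at day 2. The part of this difference in the results below was not tested.

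**Figure D3:**
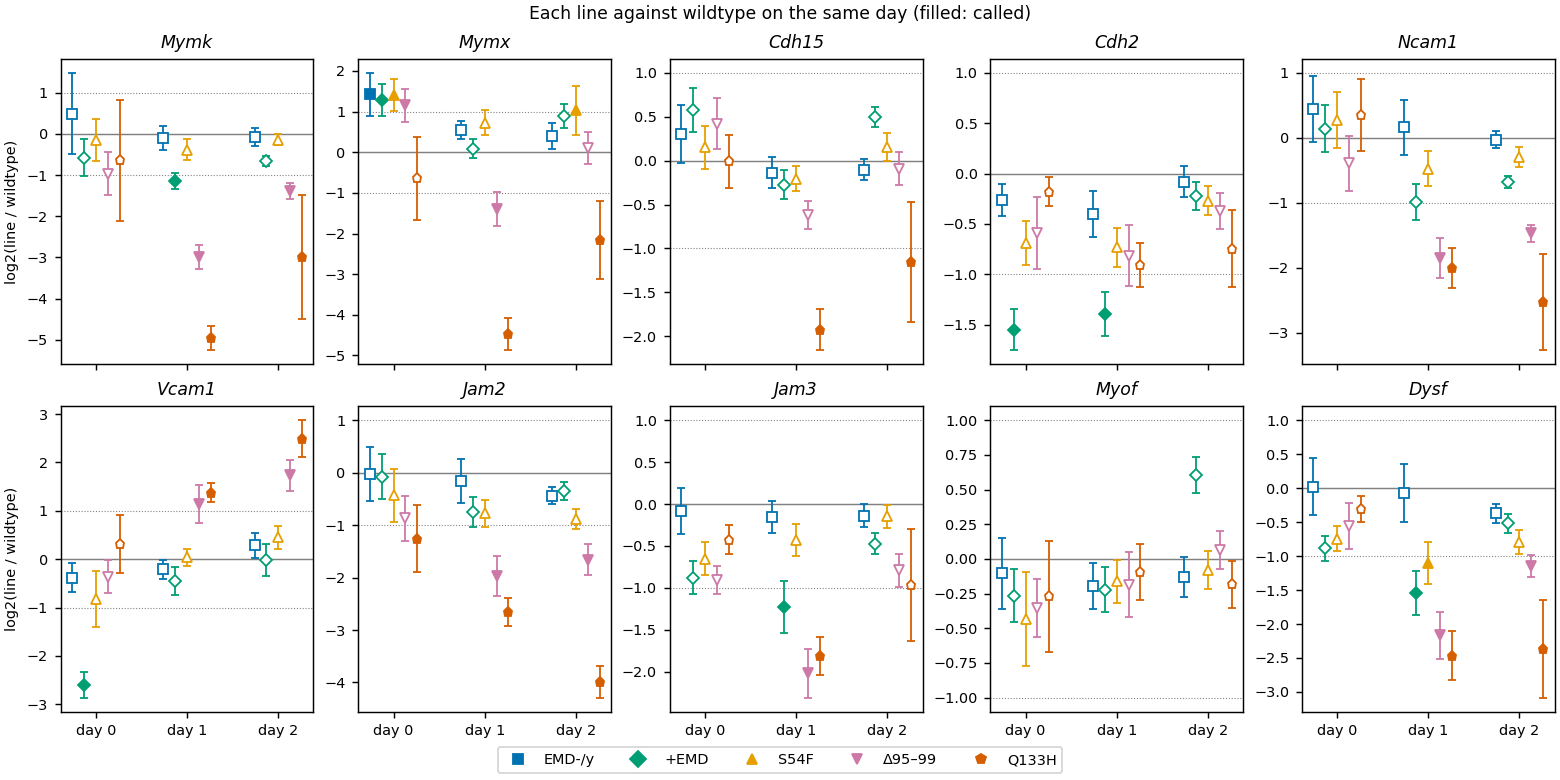
Log2 ratio of each line to wildtype on the same day, with 95% intervals derived from the p-value. Filled points were called and dotted lines mark a 2-fold difference. For Mymk, Ncam1, Jam2, and Dysf the Δ95–99 and Q133H points lie below -1 at days 1 and 2, and for Vcam1 they lie above 1.

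Mymk was the most abundant of the 10 genes per length in wildtype at day 2, at 40086 normalized counts per kb against 1496 for Mymx. Its level in wildtype was 3334 at day 0, 16555 at day 1, and 54677 at day 2. EMD-/y was at 5066, 15497, and 51654, and S54F had 3041, 12640, and 49565. The +EMD line was lower at 2232, 7482, and 34908. Δ95–99 had 1674, 2087, and 20900, so most of its rise came after day 1. Q133H had 1903, 680, and 5899, the lowest level of any line at days 1 and 2. The Q133H values at day 1 depend on the table, between 536 and 884 over 3 tables, a wider range than any other member level in any group.

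In wildtype, Mymk rose 4.82-fold from day 0 to day 1 (log2 2.27 ± 0.24, SE; DESeq2 adjusted p = 3.20e-20) and 3.29-fold from day 1 to day 2. In Δ95–99 the change to day 1 was 1.26-fold (log2 0.33 ± 0.19; DESeq2 adjusted p = 0.191), and the rise to day 2 was then 9.92-fold, the largest of the 6 lines over that interval. In Q133H the log2 change to day 1 was -1.38 ± 0.67 (DESeq2 adjusted p = 0.108), and Mymk rose 5.87-fold to day 2. Against wildtype at day 1, Mymk was 31.0-fold lower in Q133H (log2 -4.95 ± 0.15; DESeq2 adjusted p = 6.07e-223), 7.94-fold lower in Δ95–99, and 2.20-fold lower in +EMD. At day 2 it was 7.98-fold lower in Q133H (log2 -3.00 ± 0.77) and 2.62-fold lower in Δ95–99. The +EMD difference at day 2 was 1.57-fold, past the p threshold (DESeq2 adjusted p = 1.61e-24) and under the fold threshold. EMD-/y differed from wildtype by log2 -0.10 at day 1 (95% interval -0.39 to 0.20) and -0.08 at day 2 (-0.30 to 0.14), and neither passed the test.

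Mymx followed another order among the lines. Its wildtype level was 96.5, 788, and 1212 over the 3 days. At day 0 it was higher than in wildtype in 4 of the 5 other lines, at 267 in EMD-/y, 237 in +EMD, 259 in S54F, and 214 in Δ95–99, and at 58.5 in Q133H. The day 0 ratios were 2.68-fold in EMD-/y (log2 1.42 ± 0.27; DESeq2 adjusted p = 3.42e-06), 2.44-fold in +EMD, 2.65-fold in S54F, and 2.22-fold in Δ95–99, all called. Mymx was the only member called in EMD-/y against wildtype on any day. At day 0 Mymk did not show this, with log2 ratios from -0.97 to 0.49 and no call in any line.

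By day 1 Mymx stood at 1149 in EMD-/y, 831 in +EMD, 1305 in S54F, 297 in Δ95–99, and 36.5 in Q133H. It was called lower than wildtype in Δ95–99 (2.65-fold) and Q133H (22.3-fold; log2 -4.48 ± 0.20; DESeq2 adjusted p = 1.51e-103). At day 2 the levels were 1608, 2256, 2524, 1306, and 259 in the same order of lines. Mymx was then 2.04-fold higher than wildtype in S54F, 4.46-fold lower in Q133H, and at log2 0.11 ± 0.20 in Δ95–99 (DESeq2 adjusted p = 0.725), where Mymk was still called lower. In wildtype Mymx rose 8.08-fold to day 1 and 1.53-fold to day 2. In Δ95–99 these changes were 1.39-fold (DESeq2 adjusted p = 0.106) and 4.31-fold, the second of them called.

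The cadherins differed from each other. Cdh15 had a wildtype level of 3271, 12295, and 13211, a 3.73-fold rise to day 1 (log2 1.90 ± 0.13; DESeq2 adjusted p = 6.41e-45) followed by a 1.07-fold change that did not pass the test. EMD-/y was at 4070, 11191, and 12310, and S54F at 3641, 10622, and 14780. In Δ95–99 it was 4356, 8014, and 12445, and in +EMD 4915, 10132, and 18708. In Q133H Cdh15 stayed at 3233 and 3267 over the first day and reached 5855 at day 2. Only Q133H was called against wildtype, 3.80-fold lower at day 1 and 2.22-fold lower at day 2. Cdh15 in Δ95–99 at day 1 was 1.54-fold lower (DESeq2 adjusted p = 2.11e-13), under the fold threshold.

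Cdh2 changed less with time in wildtype (8768, 14189, and 12751) and was flat in Q133H, at 7681, 7611, and 7574. Its lowest levels were in +EMD at day 0 (3003) and day 1 (5351). They were 2.93-fold (log2 -1.55 ± 0.11; DESeq2 adjusted p = 2.87e-46) and 2.63-fold below wildtype, the only Cdh2 calls among the 15 comparisons with wildtype. By day 2 +EMD reached 10962, a called 2.05-fold rise from day 1. The Cdh2 ratio was below wildtype in all 15 comparisons, 13 of them at an adjusted p under 0.05. In EMD-/y the levels were 7323, 10748, and 12059, in S54F 5450, 8516, and 10591, and in Δ95–99 5771, 8078, and 9879.

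Promoter windows of 250 bases before the RefSeq start were searched for 3 of the 10 genes (Cdh15, Myof, and Dysf, with 4 windows). Positions are on the GRCm38.p6 build, the mm10 assembly. The other members were not searched, so the motif counts hold for these 3 genes only. Cdh15 and Myof are printed because the former was called higher from day 0 to day 1 in 4 of 6 lines and the latter was called in no comparison. Capitals mark the E-box CANNTG, the core bound by MyoD and related factors, searched on both strands (the motif is its own reverse complement). The windows are chr8:122848124-122848373 on the plus strand for Cdh15 and chr19:38043578-38043827 on the minus strand for Myof.
Cdh15: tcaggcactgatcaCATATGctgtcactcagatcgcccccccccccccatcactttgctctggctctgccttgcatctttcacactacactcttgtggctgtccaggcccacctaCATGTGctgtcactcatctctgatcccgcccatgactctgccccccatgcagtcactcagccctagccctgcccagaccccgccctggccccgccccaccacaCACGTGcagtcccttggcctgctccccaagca
Myof: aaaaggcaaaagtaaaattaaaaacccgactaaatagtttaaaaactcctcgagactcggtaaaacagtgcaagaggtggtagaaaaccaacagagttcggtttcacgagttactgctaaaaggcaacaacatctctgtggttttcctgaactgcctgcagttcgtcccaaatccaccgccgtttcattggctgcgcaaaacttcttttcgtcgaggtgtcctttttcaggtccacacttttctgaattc
The Cdh15 window held 3 E-boxes, at -236, -135, and -32 counted in bases from the start site, and the Myof window and both Dysf windows held 0. Of all 32851 windows of this length, 66.2% held an E-box. The narrower E-box CAGCTG was in 0 of the 4 windows and in 4271 of all windows, and the MEF2 site in 0 of the 4 and in 2.92% of all. A match is a run of letters and was not tested for binding.

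Ncam1, which is induced in differentiating myoblasts, rose late. Its wildtype level was 5987, 14875, and 49332, and in EMD-/y it was 8236, 16662, and 48284. The other lines were lower at day 2, at 40148 in S54F, 30745 in +EMD, 17834 in Δ95–99, and 8305 in Q133H. In Q133H Ncam1 fell from 7595 to 3763 over the first day (2.01-fold; SE 0.23 on the log2 scale; DESeq2 adjusted p = 1.33e-04), and this was the only call of the 10 genes in that line over that interval. In Δ95–99 it was at 4501 and 4128 at days 0 and 1. Against wildtype, Ncam1 was lower by 3.60-fold in Δ95–99 and 4.02-fold in Q133H at day 1, and by 2.77-fold and 5.77-fold at day 2. At day 0 it was called in no line.

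Vcam1, the ligand of integrin α4β1, was the only member called lower between days in wildtype. It fell there from 3149 to 1684 and then to 658, and in EMD-/y from 2416 to 1452 and 804. S54F had 1768, 1726, and 901. Q133H was at 3894, 4399, and 3725, and Δ95–99 had 2440, 3755, and 2213. Vcam1 was called higher than wildtype in both lines at day 1 (2.22-fold in Δ95–99 and 2.59-fold in Q133H) and at day 2 (3.33-fold and 5.63-fold; Q133H log2 2.49 ± 0.19; DESeq2 adjusted p = 6.39e-36). The +EMD line had the lowest Vcam1 of all at day 0, at 521, which was 6.05-fold below wildtype (log2 -2.60 ± 0.14; DESeq2 adjusted p = 2.14e-78). It then rose to 1216 at day 1 and stood at 653 at day 2, where the ratio to wildtype was log2 -0.01 ± 0.17. No other line had a called rise of Vcam1 between days, though the rise in Δ95–99 to day 1 (log2 0.63) passed the p threshold.

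Jam2 and Jam3 encode a pair of receptors that bind each other. Jam2 in wildtype was at 1498, 3525, and 8508, and in EMD-/y at 1477, 3158, and 6264. Levels in Q133H were 610, 561, and 534, with no called change between days. Q133H was the only line with a call at day 0 (2.40-fold lower; log2 -1.26 ± 0.33; DESeq2 adjusted p = 7.74e-04), and its ratio to wildtype reached 6.30-fold lower at day 1 and 15.9-fold lower at day 2 (log2 -3.99 ± 0.15; DESeq2 adjusted p = 3.40e-144). Δ95–99 had 808, 903, and 2690, and was 3.91-fold lower than wildtype at day 1 and 3.16-fold lower at day 2. The Jam2 levels were 1429, 2081, and 6671 in +EMD and 1114, 2052, and 4639 in S54F. All 15 ratios to wildtype lay below 0, with 5 called.

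Jam3 rose less, from 1873 to 3705 and 4567 in wildtype and from 1771 to 3326 and 4141 in EMD-/y. In Δ95–99 it was 991, 915, and 2646, and in Q133H 1385, 1064, and 2305. Against wildtype at day 1, Jam3 was 4.06-fold lower in Δ95–99 (log2 -2.02 ± 0.15; DESeq2 adjusted p = 1.12e-40), 3.52-fold lower in Q133H, and 2.34-fold lower in +EMD. At day 2 it was called in no line, with ratios of 1.73-fold lower in Δ95–99 and 1.95-fold lower in Q133H. Unlike Jam2, Jam3 rose in Q133H from day 1 to day 2 (2.09-fold; log2 1.06 ± 0.33; DESeq2 adjusted p = 0.00893). S54F (1196, 2742, and 4132) was the only line with a called rise of Jam3 to day 1 (2.28-fold). Jam3 rose 1.97-fold in wildtype (DESeq2 adjusted p = 4.06e-18) and 1.87-fold in EMD-/y (DESeq2 adjusted p = 1.31e-10), just under the fold threshold. The S54F change did not differ from that of wildtype (log2 difference 0.21 ± 0.14, z test, adjusted p = 0.395). The +EMD levels were 1022, 1572, and 3297.

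The ferlins differed from each other. Myof was called in none of the 27 comparisons by DESeq2, although 9 had an adjusted and 14 an unadjusted p under 0.05, and its levels spanned 6586 to 11421, a 1.73-fold range. Dysf spanned 409 to 5879, a 14.4-fold range. In wildtype Dysf was at 1017, 2248, and 5879, with rises of 2.19-fold and 2.59-fold, both called. In Q133H it was at 813, 409, and 1109. At day 1 Dysf was called lower than wildtype in 4 of 5 lines. It was 5.53-fold lower in Q133H (log2 -2.47 ± 0.18; DESeq2 adjusted p = 2.44e-39), 4.50-fold in Δ95–99, 2.91-fold in +EMD, and 2.15-fold in S54F. At day 2 it was called in Q133H (5.16-fold lower) and Δ95–99 (2.21-fold lower). Its levels at days 0, 1, and 2 were 1037, 2141, and 4531 in EMD-/y, 552, 766, and 4114 in +EMD, 609, 1038, and 3390 in S54F, and 686, 500, and 2661 in Δ95–99. The highest Myof level was in +EMD at day 2, 1.52-fold above wildtype (DESeq2 adjusted p = 5.98e-18).

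Whether a line changed between days as wildtype did was tested on the difference of the log2 changes with a z test, and p-values were adjusted over all genes tested. All lines were set against the same wildtype change. Over day 0 to day 1, 0 of 10 genes differed in EMD-/y (2 at an unadjusted p under 0.05), where 0.579% of all genes differed. The count was 5 for +EMD (18.8% of all genes), 2 for S54F (12.8%), 8 for Δ95–99 (22.7%), and 8 of 9 tested for Q133H (30.3%). The EMD-/y difference for Mymx was log2 -0.93 ± 0.27, which did not pass (z test, adjusted p = 0.0736). That for Mymx in S54F was smaller in size, at -0.70 ± 0.25, and passed (z test, adjusted p = 0.0379). P-values were adjusted within each line, so these counts do not show that EMD-/y and S54F differ for Mymx. In Δ95–99 and Q133H the same genes passed, namely Mymk, Mymx, Cdh15, Ncam1, Jam2, Jam3, and Dysf with a lower change than wildtype and Vcam1 with a higher one. The Mymk difference was log2 -1.94 ± 0.31 in Δ95–99 (z test, adjusted p = 9.41e-09) and -3.65 ± 0.71 in Q133H (z test, adjusted p = 3.42e-06). The Mymx difference was -2.54 ± 0.29 and -3.65 ± 0.56. Myof passed in neither line. Both S54F genes, Mymx and Ncam1, were lost at an adjusted p under 0.01 and with standard errors multiplied by 1.5, which left 0.

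Over day 1 to day 2, 0 genes differed in EMD-/y (2 at an unadjusted p under 0.05; 1.04% of all genes), 7 in +EMD (21.2%), 2 with S54F (9.14%; 0 with standard errors multiplied by 1.5), 6 for Δ95–99 (23.9%), and 3 for Q133H (27.5%). All 6 in Δ95–99 (Mymk, Mymx, Cdh15, Cdh2, Jam3, and Dysf) had a more positive change than in wildtype. The Mymk difference was log2 1.59 ± 0.17 (z test, adjusted p = 1.45e-18). For Cdh2 the log2 change was 0.29 in Δ95–99 and -0.16 in wildtype. All 7 in +EMD had a more positive change than in wildtype, led by Cdh2 at log2 1.19 ± 0.13 (z test, adjusted p = 1.29e-17). In Q133H the change was more positive for Mymx (log2 1.91 ± 0.52) and Vcam1 (1.11 ± 0.21) and more negative for Jam2 (-1.34 ± 0.21). For Mymk it was 0.84 ± 0.63, which did not pass (z test, adjusted p = 0.356). Both sets of tests share the day 1 samples of wildtype and of the line, so a low day 1 value enters both with opposite sign.

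**Figure D4:**
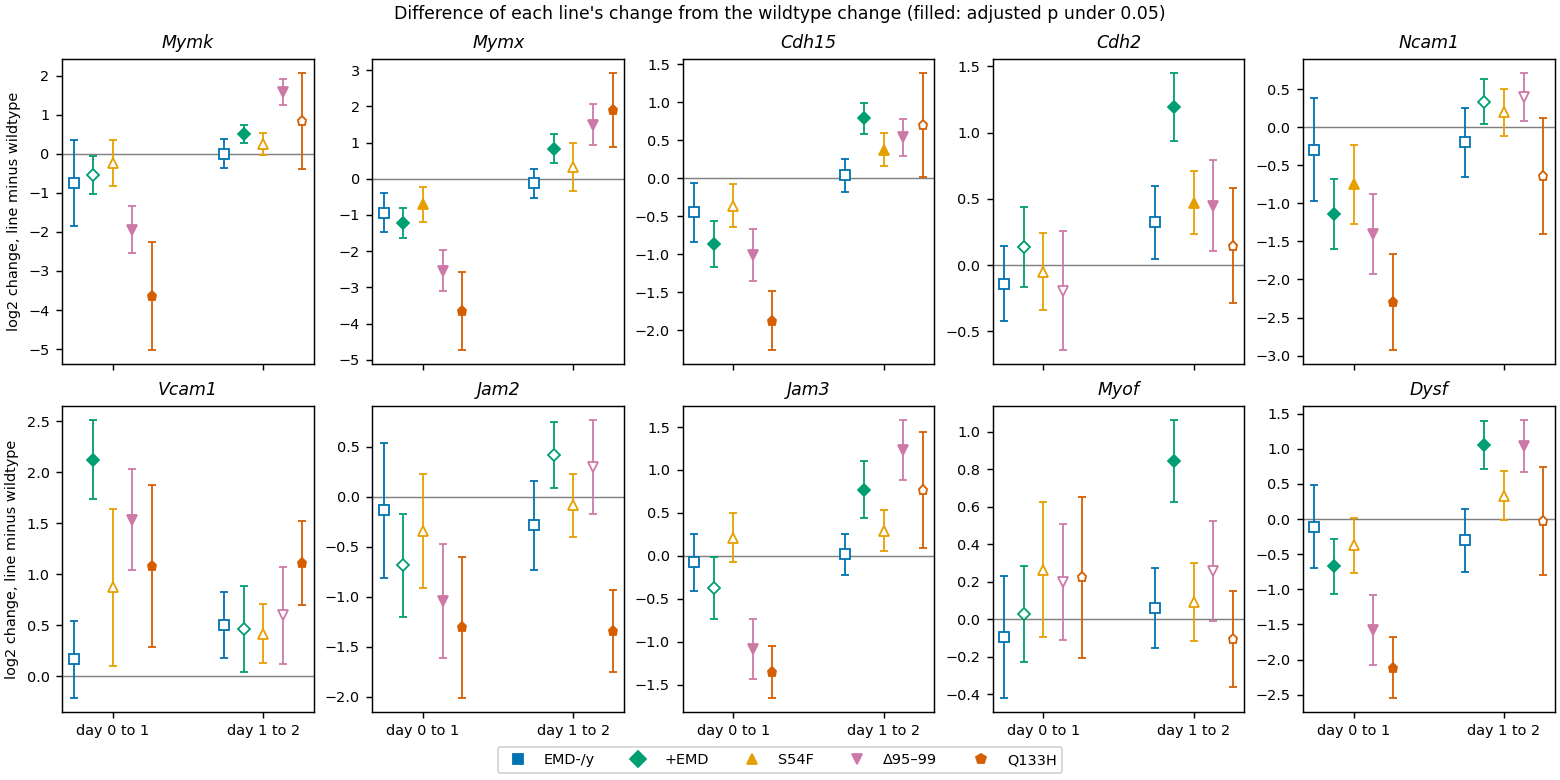
Log2 change between days in each line minus that in wildtype, with 95% intervals. Filled points passed the z test at an adjusted p under 0.05. Most Δ95–99 and Q133H points lie below 0 for day 0 to 1, and Δ95–99 and +EMD points lie above 0 for day 1 to 2. Cdh2 in Q133H has no point for day 0 to 1 because it was not tested.

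The +EMD line was also set against EMD-/y, the line it was made from. From day 0 to day 1, 2 of 10 genes differed (10.5% of all genes). They were Vcam1, which rose in +EMD and fell in EMD-/y (difference log2 1.96 ± 0.22; z test, adjusted p = 2.98e-16), and Ncam1 (-0.84 ± 0.27). From day 1 to day 2, 9 of 10 differed (15.4% of all genes), all with a more positive change in +EMD, from 0.50 ± 0.18 for Mymk to 1.35 ± 0.20 for Dysf. Vcam1 was the exception (-0.04 ± 0.22). The count of 9 fell to 6 at an adjusted p under 0.01, and to 6 with standard errors multiplied by 1.5. The 9 genes started from lower levels in +EMD than in EMD-/y at day 1 (Mymk 7482 against 15497, Dysf 766 against 2141). At day 2 the +EMD level was still lower for Mymk (34908 against 51654), Cdh2, Ncam1, Jam3, and Dysf, and higher for Mymx, Cdh15, Jam2, and Myof. No table compares +EMD with EMD-/y on the same day, so their levels were not tested against each other.

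Other genes of the fusion pathway were taken from a list of 49 genes by role, of which 47 to 49 were listed per table. In EMD-/y, 3 were called against wildtype at day 0 (1 higher), 3 at day 1 (1 higher), and 3 at day 2 (2 higher). These were 6.38%, 6.12%, and 6.12% of the list, near the 5.51%, 4.93%, and 5.27% of all genes. In Δ95–99 the counts were 8, 13, and 15 over the 3 days, or 16.7%, 26.5%, and 30.6% of the list against 8.78%, 16.3%, and 17.3% of all genes. In Q133H they were 3, 17, and 23, of which 0, 4, and 12 were higher in Q133H. The Q133H share of the list was below that of all genes at day 0 (6.12% against 10.7%) and above it at day 1 (34.7% against 18.8%) and day 2 (47.9% against 26.9%). The +EMD line had 11 called at day 0 (23.4% against 12.6%), and its 8 at day 1 (16.3% against 15.2%) and 6 at day 2 (12.5% against 14.1%) were near the share of all genes. S54F had 4 at day 0 (8.51% against 8.38%), 7 at day 1 (14.3% against 8.95%), and 6 at day 2 (12.2% against 8.02%). The median log2 ratio of the list lay between -0.28 and 0.12 in these comparisons, where that of all genes lay between -0.03 and 0.03. Between days, the list had 14 called in wildtype from day 0 to day 1 (8 higher; 28.6% of the list against 17.4% of all genes) and 13 from day 1 to day 2 (5 higher; 26.5% against 15.1%). Over the earlier interval 12 were called in EMD-/y (24.5% against 15.5%), 12 in +EMD (25% against 12.6%), 8 in S54F (16.3% against 12.6%), 11 in Δ95–99 (22.4% against 10.6%), and 12 in Q133H (24.5% against 8.14%). Over the later interval the counts were 8 in EMD-/y (16.3% against 13.6%), 9 in +EMD (18.8% against 15.4%), 9 in S54F (18.4% against 15.8%), 7 in Δ95–99 (14.3% against 10.9%), and 6 in Q133H (12.5% against 7.29%). The shares of the list were not tested against those of all genes.

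The list genes called in most of the 27 comparisons were F11r (20), Capn3 (18), and Cav3 (18). F11r, which encodes the junctional adhesion molecule JAM-A, was called lower than wildtype in all 15 comparisons, EMD-/y included, all against the same wildtype samples. Its level was 433, 891, and 877 in wildtype and 52.3, 104, and 98.4 in EMD-/y, an 8.31-fold difference at day 1 (log2 -3.06 ± 0.17; DESeq2 adjusted p = 3.61e-70). In +EMD F11r was at 159, 248, and 205. Cav3, which encodes the muscle caveolin, was at 498, 1828, and 6627 in wildtype, 777, 2032, and 6410 in EMD-/y, and 23.9, 57.7, and 913 in +EMD. At day 1 Cav3 was 31.2-fold lower in +EMD and 84.8-fold lower in Q133H than in wildtype. The Q133H ratio depends on the table, since the Cav3 value of Q133H at day 1 lay between 21.6 and 29.7 over 3 tables. Capn3, the muscle calpain, was at 73.5, 436, and 2845 in wildtype and at 32.6, 7.26, and 116 in Q133H, where the day 1 value lay between 4.19 and 9.03 over 3 tables.

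Among 13245 genes listed in all tables with a group value of at least 10, the 3 whose log2 ratios over the 27 comparisons ran most like those of Mymk were Prkag3 (Pearson r = 0.992), Tnnt3 (0.992), and then Atp2a1. Prkag3 encodes a muscle subunit of AMP-activated kinase, Tnnt3 fast troponin T, and Atp2a1 the calcium pump of fast fibers. For Mymx they were Ccdc162 (0.958), Rnf217 (0.956), and Heyl (0.956). Tnnt3 was at 2702, 14430, and 56509 in wildtype and at 1626, 624, and 7713 in Q133H. These r values are descriptions over comparisons that share groups. Between members, r was 0.869 for Mymk with Mymx, 0.941 for Mymk with Dysf, -0.564 for Mymk with Vcam1, and 0.103 for Mymk with Myof.

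Exons of 4 members share bases with annotated antisense genes in GENCODE vM21 (417 bases in Ncam1, 61 in Vcam1, 1159 in Jam3, and 105 and 352 in Dysf). Whether counting used strand is not stated, so reads from these stretches cannot be assigned to a strand. The other 6 members overlap no annotated exon of another gene.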

How the data were processed

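RNA from 6 H2K lines at days 0, 1, and 2 was sequenced (54 samples, 18 groups). Per the labels and the study's methods, poly-A RNA was sequenced as paired-end reads, filtered with SOAPnuke, mapped to mm10 with HISAT2, and compared with DESeq2 by the sequencing provider. The counter, annotation, versions, and strand setting are not given in the sources used here. The signal values as deposited by the authors are normalized counts, 1 per group and table. The p-values as deposited by the authors are those of DESeq2. The authors' columns of log2 fold change, adjusted p-value, and direction hold their own comparisons and were not used. Depth per sample and precision could be read only from these p-values. Columns of values per sample left out numbered 0.

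Log2 ratios were taken from the 2 group values without a pseudocount, and p-values were adjusted here over all genes of a table (17215 to 17876, of which 1475 to 1571 were predicted genes without an NCBI gene number). Standard errors were obtained by dividing the absolute log2 ratio by the normal quantile that matches its p-value. P-values of 0 were set to 1e-300 and those above 0.99 were left out, which left Cdh2 in Q133H from day 0 to day 1 untested. The difference between 2 changes was tested with a z test. Its code was checked on log2 ratios simulated with normal errors, which cannot show how the test behaves on the deposited values. Scale factors for levels came from genes above 500 in groups that tables share (largest residual 0.0173 on the log2 scale). The length of a gene is its median over tables.

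The 10 members, the fusion list of 49 genes, and the marker lists were chosen with earlier results of these data known, and nothing is adjusted over a list alone. Named genes are the 10 members, the 3 list genes called most often, and the 3 genes most like Mymk and most like Mymx. Near-identical copies were sought with minimap2 2.31-r1302 (at least 200 bases at 97% identity), and none was found apart from the antisense gene over Jam3. Alternatives were other thresholds, a filter on low values, a pseudocount of 1, leaving out predicted genes, and standard errors multiplied by 1.5. Scripts ran in Python 3.11.15 with scipy 1.17.1 for quantiles, pandas 2.3.3 and numpy 2.4.6 for tables, and figures from matplotlib 3.10.9.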

Additional observations from a re-analysis of the deposited data

Results flagged for a closer look

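The changes between days below were singled out because they differed between a line and its reference line in the z test at an adjusted p under 0.05. Each value is the log2 change in the line minus that in the reference, all lines share the wildtype reference, and no explanation was tested.

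From day 0 to day 1, the change in +EMD minus that in wildtype was -1.22 for Mymx, -0.86 for Cdh15, -1.14 for Ncam1, 2.12 for Vcam1, and -0.67 for Dysf. In S54F it was -0.70 for Mymx and -0.75 for Ncam1. In Δ95–99 it was -1.94 for Mymk, -2.54 for Mymx, -1.01 for Cdh15, -1.40 for Ncam1, 1.54 for Vcam1, -1.04 for Jam2, -1.08 for Jam3, and -1.58 for Dysf. In Q133H it was -3.65 for Mymk, -3.65 for Mymx, -1.88 for Cdh15, -2.30 for Ncam1, 1.08 for Vcam1, -1.31 for Jam2, -1.35 for Jam3, and -2.11 for Dysf.

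From day 1 to day 2, the change in +EMD minus that in wildtype was 0.51 for Mymk, 0.83 for Mymx, 0.79 for Cdh15, 1.19 for Cdh2, 0.77 for Jam3, 0.84 for Myof, and 1.05 for Dysf. In S54F it was 0.38 for Cdh15 and 0.47 for Cdh2. In Δ95–99 it was 1.59 for Mymk, 1.498 for Mymx, 0.54 for Cdh15, 0.45 for Cdh2, 1.23 for Jam3, and 1.04 for Dysf. In Q133H it was 1.91 for Mymx, 1.11 for Vcam1, and -1.34 for Jam2.

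Against EMD-/y, the change in +EMD from day 0 to day 1 differed by -0.84 for Ncam1 and 1.96 for Vcam1. From day 1 to day 2 it differed by 0.50 for Mymk, 0.96 for Mymx, 0.75 for Cdh15, 0.87 for Cdh2, 0.54 for Ncam1, 0.70 for Jam2, 0.75 for Jam3, 0.78 for Myof, and 1.35 for Dysf.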

How the results depend on the processing

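Of 51 alternative counts, 41 stayed within 1.5 times the reported count. Without the fold threshold, calls of the 10 genes against wildtype summed over lines went from 7 to 26 at day 0, 20 to 37 at day 1, and 13 to 33 at day 2. Calls between days went from 20 to 45 and from 30 to 47. Those of the fusion list went from 130 to 385 against wildtype and from 121 to 322 between days. With standard errors multiplied by 1.5, the day 1 to day 2 changes that differed from wildtype fell from 18 to 11, and those from day 0 to day 1 that differed between +EMD and EMD-/y from 2 to 1. In S54F both intervals then had 0 in place of 2. The +EMD count against EMD-/y from day 0 to day 1 was also 1 at an adjusted p under 0.01. The cause was not tested for any of these. Of 1826 values of single genes under an alternative, 1695 kept their call, 26 lost it, 105 gained it, and 0 changed sign among called ones. No paired analysis was possible because the tables hold no values per sample, and no replicate could be left out for the same reason. Group values of weakly expressed genes lean toward the partner group, which limits their folds.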
